A study of Zea mays with 4 samples.

Results

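Cytosolic glyceraldehyde-3-phosphate dehydrogenase (GAPDH) and the fermentative enzymes pyruvate decarboxylase and alcohol dehydrogenase were followed in the maize ear internode, the stem segment at the node that carries the ear. Probe sets were chosen by gene name, taking each one whose gene is called gpc, pdc or adh plus a number, which gave 16 of the 17734 probe sets on the array. They stand for 9 genes, namely 4 cytosolic GAPDH genes on 7 probe sets, 3 pyruvate decarboxylase genes on 7 and 2 alcohol dehydrogenase genes on 2. These families were taken up with the stage changes of gpc3, gpc4 and pdc2 already known, so the measured changes between stages served to choose them. The changes are given here as a description, and p-values from the fit over all probe sets are not read as a test of the members.

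Plants of the inbred line F271, the less favourable parent of a population in which loci for lignin and wall degradability were mapped, grew without treatment in a field that was irrigated against drought in a hot summer. Total RNA of the ear internode was amplified, labelled with biotin and hybridised to 1 Affymetrix maize array for each sample. At tassel emergence there were 2 arrays, from 290 and 440 ng of RNA, and at early silking 2 arrays, from 340 and 400 ng. The only comparison of the design is early silking against tassel emergence, in 1 line, 1 organ and 1 season, and the labels do not say whether replicates came from separate plants.

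Cytosolic GAPDH catalyses the first oxidation of glycolysis, in which NAD+ is reduced to NADH, and thus supplies both ATP synthesis and the pathway to pyruvate. When respiration cannot take up that NADH, pyruvate decarboxylase turns pyruvate into acetaldehyde and alcohol dehydrogenase reduces acetaldehyde to ethanol, which returns NAD+ to the GAPDH step. In maize seedlings without oxygen, transcripts of gpc3, gpc4, adh1, adh2 and pyruvate decarboxylase genes accumulate, while those of gpc1 and gpc2 do not. gpc3 and gpc4 are close copies of each other, so that probes for one may bind the other.

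Values are log2 probe set summaries, in which a difference of 1 is a 2-fold difference. A probe set was tested when it lay above a log2 value of 4 on 2 or more of the 4 arrays, of either stage. This kept 11 of the 16 member probe sets and 8 of the 9 genes. All 7 probe sets for cytosolic GAPDH passed, against 4 of the 9 for the fermentative enzymes. The 5 that were left out, 2 for pdc1 and 3 for pdc2, had values of 1.85 to 4.36. Probe sets differ in how strongly they bind, so their values were compared between stages, and levels of different genes stand side by side without a ranking. Of the tested member probe sets, 6 to 8 lay above the 75th percentile of their array.

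The array medians over probe sets without controls were 6.35 to 6.51 and the 75th percentiles 9.13 to 9.17. Replicates correlated at r = 0.933 at tassel emergence and r = 0.967 at early silking, and arrays of different stages at 0.883 to 0.914, taken over probe sets, which are no replicates. Secondary wall genes that mark a lignifying stem (cesa10, cesa11, CesA12 and bk2) were all above the limit of 4, and their mean was 12.63 and 13.06 at tassel emergence against 10.70 and 10.31 at early silking. The 9 genes of green tissue that were measured, such as rbcS and psaN, averaged 11.83 and 12.59, then 12.90 and 12.41. Of 3 kernel storage genes 1 was tested, gz27, with 6.85 and 6.97 and then 6.86 and 5.99. In a bulk sample, fewer cells of a type and less RNA per cell cannot be told apart. How far tissue makeup entered the changes below was not tested.

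The 4 cytosolic GAPDH genes went separate ways between the stages. gpc3 and gpc4 were lower at early silking by 3.21-fold to 5.51-fold, depending on the probe set, whereas gpc1 and gpc2, the copies that do not respond to lack of oxygen, stayed within 0.43 on the log2 scale. Among the fermentative genes, pdc2 and adh2 were higher at early silking by 2.50-fold and 2.05-fold, and adh1 differed by 0.13. pdc3 differed more between replicates than between stages.

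gpc1 (NCBI gene 542367) read 13.15 and 13.58 at tassel emergence against 13.90 and 13.70 at early silking on the probe set Zm.3765.1.S1_s_at. The stages did not overlap there, yet the change of 0.43 (SE 0.24) was about as large as the gap between the tassel emergence replicates, also 0.43. The ending _s_at marks probes that several transcripts share. Its other probe set, Zm.3765.2.S1_at, had 7.66 and 7.62 and then 7.41 and 7.96, with overlapping stages and a change of 0.04 (SE 0.26).

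gpc2 (NCBI gene 542718) read 13.38 and 13.67 at tassel emergence against 13.70 and 13.64 at early silking. The stages overlapped and the change was 0.14 (SE 0.20), against a median change of 0.10 over all 10782 tested probe sets. gpc2 and the first gpc1 probe set lay above 13 on every array, the second gpc1 probe set lay below every array's 75th percentile, and the 3 changes were 0.04 to 0.43.

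gpc3 (NCBI gene 542333) was measured by 3 probe sets, all lower at early silking without overlap. Zm.2601.1.S1_at read 12.04 and 11.78 at tassel emergence against 10.32 and 10.13 at early silking. The means were 11.91 ± 0.18 (SD, n = 2) and 10.23 ± 0.13, a change of -1.68 with an SE of 0.20, or 3.21-fold lower. The gap between the stages was over 6 times the larger replicate difference of 0.26.

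The other gpc3 probe sets carry a cluster number, 274, that they share with the probe set of gpc4. Zm.274.3.S1_at had 9.37 and 8.16 and then 6.15 and 6.70, and Zm.274.3.S1_x_at, whose ending marks probes that may bind other transcripts, had 8.88 and 7.99 and then 5.60 and 6.35. Their changes of -2.34 (SE 0.50) and -2.46 (SE 0.45) had the same direction as that of the first probe set and a wider spread between replicates. The 2 are variants of one design and are not independent measurements of gpc3.

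gpc4 (NCBI gene 100037774) read 10.21 and 10.17 at tassel emergence against 8.04 and 8.52 at early silking. The means of 10.19 ± 0.02 (SD, n = 2) and 8.28 ± 0.34 differed by -1.91 with an SE of 0.24, or 3.76-fold. The stages did not overlap and lay further apart than either pair of replicates. Since gpc3 and gpc4 are close copies, their signals may be shared in part.

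**Figure D1:**
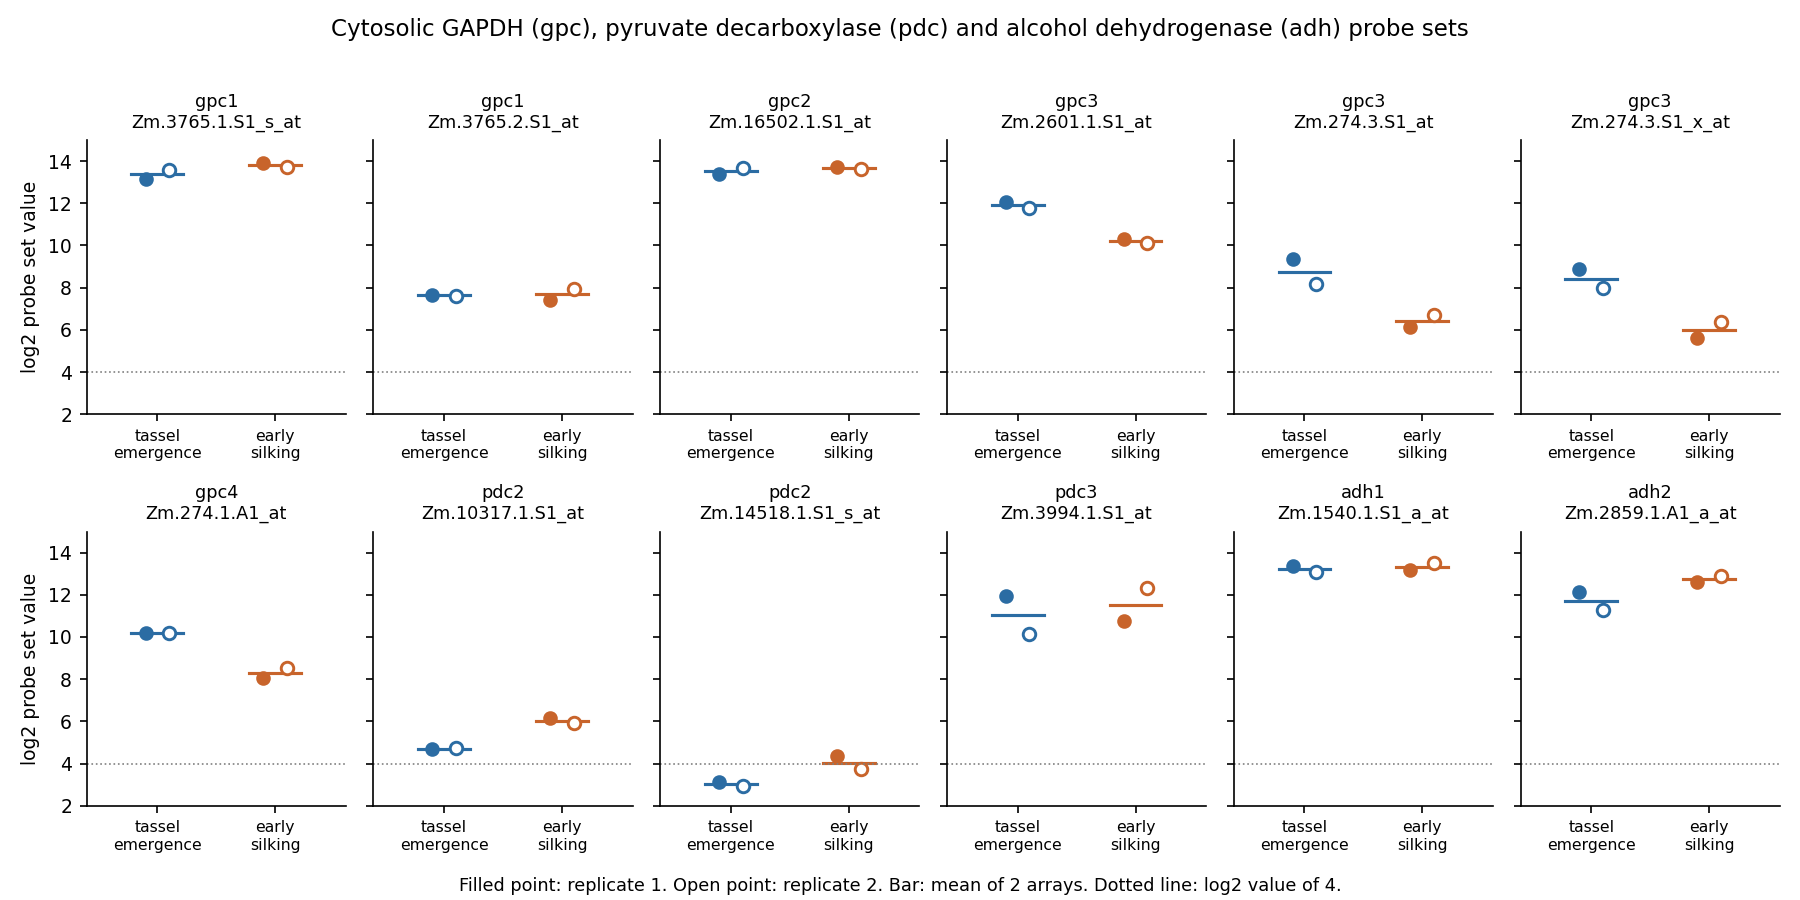
Log2 values of 12 probe sets for gpc, pdc and adh genes on each of the 4 arrays, with blue for tassel emergence, orange for early silking, a bar for the mean of 2 arrays and a dotted line at the limit of 4. The gpc3 and gpc4 points are lower at early silking, those of pdc2 and adh2 higher, and those of pdc3 spread widely within each stage.

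Within each array, the difference between 2 probe sets does not depend on a shift common to that array. gpc3 minus gpc2 was -1.35 and -1.89 at tassel emergence and -3.38 and -3.51 at early silking, a shift of -1.82. gpc4 minus gpc2 moved likewise, from -3.17 and -3.50 to -5.66 and -5.12, a shift of -2.05. Against gpc1 on Zm.3765.1.S1_s_at the shifts were -2.12 for gpc3 and -2.35 for gpc4. gpc4 minus gpc3 was -1.83 and -1.60 and then -2.28 and -1.61, with overlapping stages and a shift of -0.23. The differences of gpc3 and gpc4 from gpc2 and from this gpc1 probe set were thus lower on both early silking arrays than on either tassel emergence array. Their size as such depends on the probe sets, and is not read as an order of the genes.

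pdc2 (NCBI gene 542651), a pyruvate decarboxylase gene, read 4.70 and 4.72 at tassel emergence against 6.16 and 5.91 at early silking on Zm.10317.1.S1_at. The means were 4.71 ± 0.01 (SD, n = 2) and 6.04 ± 0.18, and the change was 1.32 with an SE of 0.19. The stages did not overlap and the tassel emergence values lay close to the limit of 4. A further pdc2 probe set, Zm.14518.1.S1_s_at, had 3.12 and 2.94 and then 4.36 and 3.74. It was above 4 on 1 array and was not tested. Both of its early silking values stood above both of its tassel emergence values, as on the tested probe set. Its ending marks probes that several transcripts share, so its signal may not be that of pdc2 alone. The remaining pair for pdc2 had values of 1.85 to 2.21 on every array, so 2 of the 4 probe sets annotated to this gene gave no signal above the limit on any array.

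pdc1 (NCBI gene 542376) was represented by Zm.166.2.A1_a_at, with 2.33 and 2.26 and then 2.23 and 2.36, and by Zm.166.2.S1_at, with 2.21 and 2.20 and then 2.19 and 2.25. Neither was above the limit on any array, which does not show that the transcript was absent.

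pdc3 (NCBI gene 541919) read 11.96 and 10.14 at tassel emergence against 10.74 and 12.32 at early silking. The replicates differed by 1.82 and 1.58, and the stages by 0.48 with an SE of 0.88. The high values came from tassel emergence replicate 1 and early silking replicate 2, so the stages overlapped. In each stage the array with the higher pdc3 value was also the one with the larger 3′ minus 5′ gap in control transcripts. The mean gap was 4.57 against 2.88 at tassel emergence and 2.37 against 1.84 at early silking. Across the 4 arrays the orders differed, as the highest pdc3 value, 12.32, came with a gap of 2.37 and the lowest, 10.14, with 2.88. The part of the gap in the pdc3 result was not tested. Without tassel emergence replicate 2 the pdc3 change was -0.43, without early silking replicate 2 it was -0.31, and without tassel emergence replicate 1 it was 1.39.

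adh1 (NCBI gene 542363), the main alcohol dehydrogenase gene of maize, read 13.35 and 13.07 at tassel emergence against 13.18 and 13.50 at early silking. The change of 0.13 (SE 0.23) was smaller than the replicate differences of 0.28 and 0.32. adh2 (NCBI gene 542364) had 12.13 and 11.30 and then 12.62 and 12.87, with means of 11.71 ± 0.59 (SD, n = 2) and 12.74 ± 0.18. Its change was 1.03 with an SE of 0.35, without overlap, though the tassel emergence replicates stood 0.83 apart. Leaving out single arrays gave changes of 0.62 (without tassel emergence replicate 2) to 1.45 (without tassel emergence replicate 1) for adh2. adh2 minus adh1 was -1.22 and -1.78 at tassel emergence and -0.56 and -0.63 at early silking, a shift of 0.90 between the copies.

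**Figure D2:**
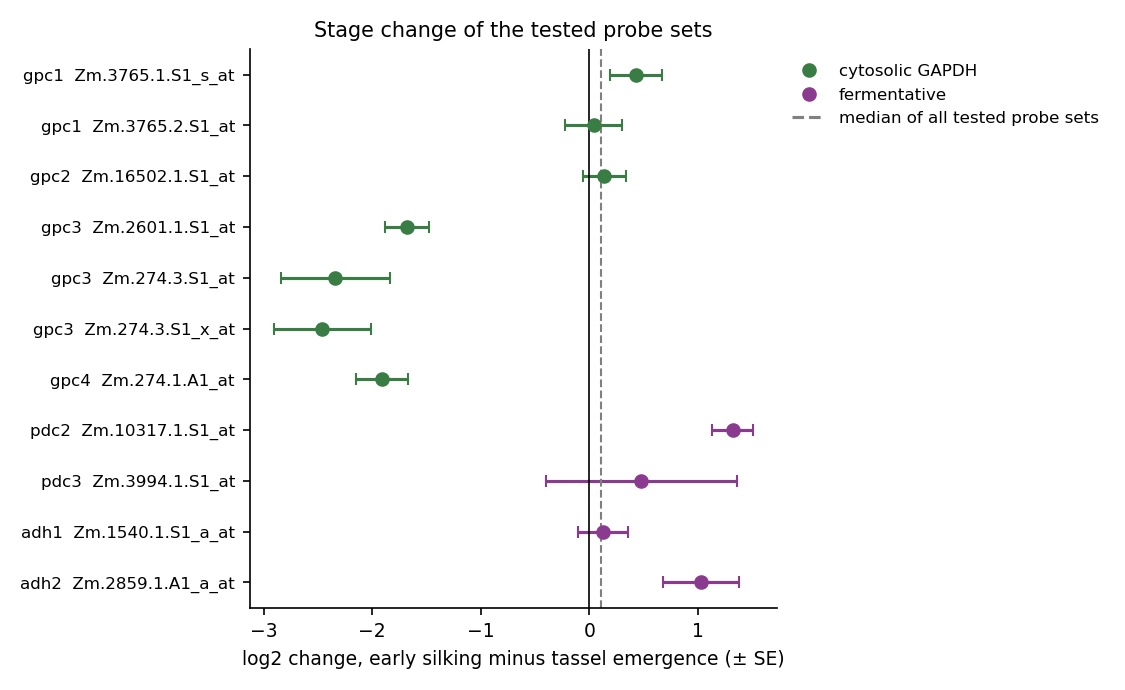
Log2 change between the stages for the 11 tested probe sets, with bars of 1 SE from the fit over all probe sets and a dashed line at the median change of 0.10. The 4 probe sets of gpc3 and gpc4 lie between -2.46 and -1.68, those of gpc1 and gpc2 between 0.04 and 0.43, and the fermentative ones between 0.13 and 1.32.

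The glycolytic and fermentative genes were then set against each other. The median value of the 4 fermentative probe sets was 12.05 and 10.72 at tassel emergence and 11.68 and 12.60 at early silking, and that of the 7 cytosolic GAPDH probe sets was 10.21 and 10.17 and then 8.04 and 8.52. Fermentative minus cytosolic GAPDH was 1.84 and 0.54 and then 3.64 and 4.08, which is 2.67 higher at early silking. The height of this difference depends on how the probes bind, and its shift on which probe sets enter it. The stages did not overlap in it, with a spread of 0.68 (pooled SD) between replicates.

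That value rests in part on the number of probe sets for gpc3. The GAPDH median was the gpc4 value on all 4 arrays, and 3 of the 7 probe sets measure gpc3. The fermentative median was on all 4 arrays the mean of pdc3 and adh2, so that pdc2 and adh1 did not set it, and pdc3 had overlapping stages and a change whose sign turned without tassel emergence replicate 2 or early silking replicate 2. With 1 probe set per gene the difference was 1.44, and with means in place of medians 1.85. Genes within a class also differed, since gpc1, gpc2 and adh1 had changes of 0.04 to 0.43 where gpc3 and gpc4 were lower and pdc2 and adh2 higher. Set against gpc2 within each array, pdc2 shifted by 1.18 (pooled SD 0.16) and adh2 by 0.89 (pooled SD 0.58). adh2 minus gpc2 was -1.26 and -2.38 at tassel emergence and -1.08 and -0.76 at early silking, so its replicates lay far apart at tassel emergence.

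No member probe set passed an adjusted p of 0.05 in the fit over all 10782 tested probe sets, and neither did any other, so that 0% were called (limma, 2-sided, Benjamini-Hochberg adjustment). An unadjusted p under 0.05 was found for 6 of the 11 members and for 24.8% of all tested probe sets. Stages did not overlap in 7 of the 11 members, 63.6%, and in 59.7% of all tested probe sets. Of these 7, 3 were higher, where the share over all was 34.9%, and 4 were lower, where it was 24.9%. Since 3 of the 4 lower ones measure gpc3 and the contrast had served to choose the genes, nothing is read from these counts. By size alone, which is a description of changes that had served to choose the genes, 5.25% of tested probe sets had a change below that of gpc3 on Zm.2601.1.S1_at, 2.48% and 2.16% below those of its other probe sets, 4.00% below that of gpc4, 3.60% above that of pdc2 and 6.65% above that of adh2.

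The array also carries control probe sets for a maize GAPDH transcript, which were not among the members. The one for the 3′ end had 14.26 and 14.33 at tassel emergence and 14.45 and 14.29 at early silking, which overlap and differ by 0.07. The one for the middle of the transcript had 11.22 and 12.51 and then 13.01 and 12.68, and the one for the 5′ end 9.48 and 11.64 and then 12.67 and 12.17. These were higher at early silking by 0.98 and 1.86 without overlap, although they are named for the same transcript as the 3′ probe set.

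The 3′ minus 5′ gap of GAPDH was therefore 4.78 and 2.69 at tassel emergence and 1.78 and 2.11 at early silking. In cyclophilin, ubiquitin, EF1a and actin the stage mean of the gap was also smaller at early silking, by 0.84 to 2.28 on the log2 scale. In cyclophilin the stages overlapped, with 2.05 and 0.68 at tassel emergence and 0.33 and 0.72 at early silking. The gap depends on RNA integrity and on amplification, and its mean over the 5 transcripts moved with stage beside every change given here. Its part in those changes was not tested.

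A second set of GAPDH controls, with another name, went the other way. Zm-gapdh-M_s_at had 10.11 and 11.44 at tassel emergence and 9.88 and 9.47 at early silking, a change of -1.10. Zm-gapdh-M_at had 5.17 and 6.74 and then 4.32 and 4.70, a change of -1.44. Both were lower at early silking without overlap. The 3′ and 5′ probe sets of that second set were at 2.08 to 2.31 on every array. The files do not pair the controls with a gpc gene.

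**Figure D3:**
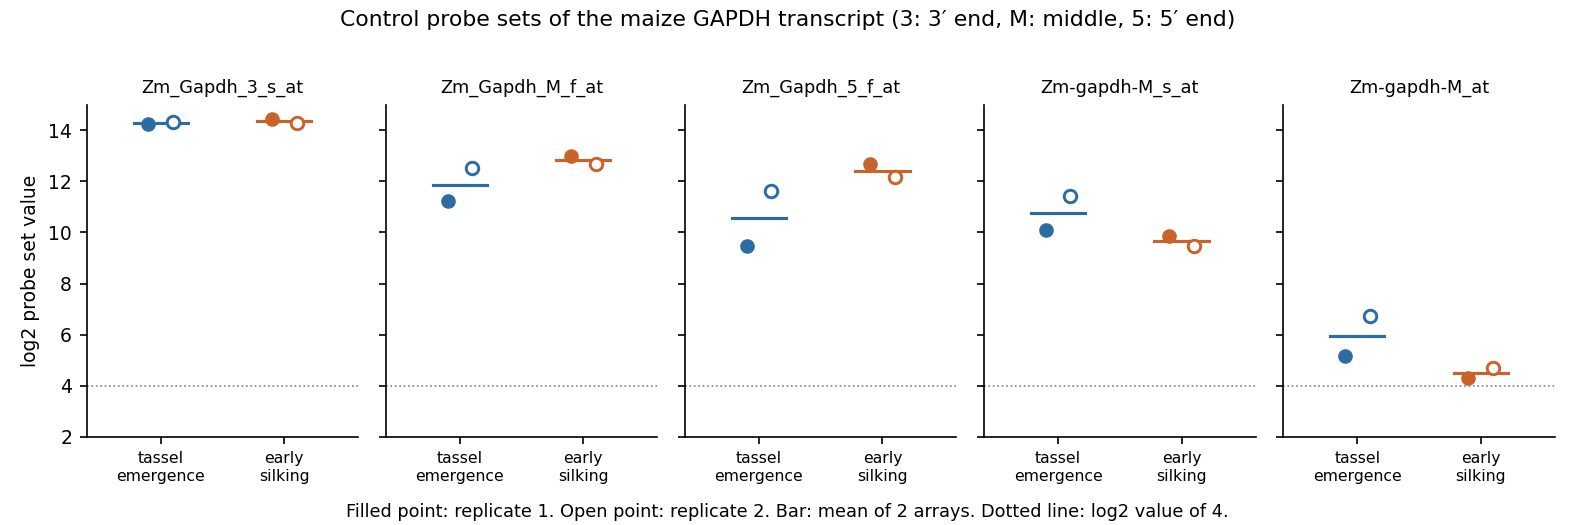
Log2 values of 5 control probe sets for maize GAPDH on each array, with filled points for replicate 1, open points for replicate 2 and a bar for the mean of 2 arrays. The 3′ probe set stays between 14.26 and 14.45, the middle and 5′ ones of the same set are lowest on tassel emergence replicate 1, and both middle probe sets of the second set are lower at early silking.

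Other enzymes around these steps were described from lists of gene names for glycolysis, plastid GAPDH, further fates of pyruvate, acetaldehyde and NADH, and the response to low oxygen in maize. Of 22 tested genes in the 5 lists, none passed (limma, smallest adjusted p = 0.0968), 7 had an unadjusted p under 0.05, and stages did not overlap in 11, 9 higher and 2 lower. That is 50% of the genes, against 59.7% of all tested probe sets.

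In upper glycolysis, 1 of 3 genes had stages that did not overlap. pfk1, named as a phosphofructokinase, had 8.64 and 8.96 at tassel emergence and 10.11 and 10.03 at early silking, a change of 1.27 with an SE of 0.21. phi1, phosphohexose isomerase, and ald1, an aldolase, had -0.08 and -0.26 with overlapping stages. The list median was -0.08.

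In lower glycolysis, the enolase gene eno1 had 14.04 and 13.92 and then 13.85 and 13.96, a change of -0.07. eno2, a second enolase, had 11.98 and 12.10 and then 12.65 and 12.57, a change of 0.57 (SE 0.18) without overlap. gpn1, the non-phosphorylating GAPDH that makes NADPH in the cytosol, had 8.30 and 10.41 and then 10.43 and 9.20, so that its replicates differed by more than its stages. The plastid GAPDH genes gpa1 and gpb1, which serve the Calvin cycle, had 0.00 and 0.43, and only in gpb1 did the stages not overlap. None of these GAPDH genes outside the gpc family was lower by the size seen in gpc3 and gpc4.

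Downstream of pyruvate decarboxylase, aldehyde dehydrogenases can oxidise acetaldehyde to acetate in place of its reduction to ethanol. The list of these and related routes had 5 of 8 tested genes higher without overlap and none lower, where 34.9% of all tested probe sets were higher and 24.9% lower without overlap. The 5 were rf2, rf2b, rf2c, ALDH10A5 (0.64) and the malate dehydrogenase gene mdh4 (CYTMDH, 0.47), so they are not all acetaldehyde enzymes. The list median was 0.55, and 0.16 with genes matched by name alone. Its highest changes were those of rf2b (9.19 and 8.76 and then 9.84 and 10.54, a change of 1.22 with an SE of 0.34), rf2, the mitochondrial aldehyde dehydrogenase of the restorer of fertility locus (0.79), and rf2c (0.72). pdh2, a subunit of the mitochondrial pyruvate dehydrogenase, had the list's only negative change, -0.27, with overlapping stages.

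The low oxygen list had a median of -0.12 over 6 genes. It includes sus2, which the plan for the list did not name and whose change of -0.11 helps set the median. The median was 0.12 without tassel emergence replicate 1 and 0.05 without early silking replicate 1. It was -0.41 and -0.34 without replicate 2 of tassel emergence and of early silking. Hb2, a haemoglobin, had 9.51 and 9.69 at tassel emergence and 8.88 and 8.22 at early silking, a change of -1.04 (SE 0.30). The sucrose synthase gene sus1 had 14.37 and 14.43 and then 13.89 and 13.82, a change of -0.55. In both the stages did not overlap. sh1 and sus2, also sucrose synthases, had 0.00 and -0.11, the haemoglobin gene Hb had -0.14, and xet1, a xyloglucan endotransglucosylase, had 0.23 without overlap.

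**Figure D4:**
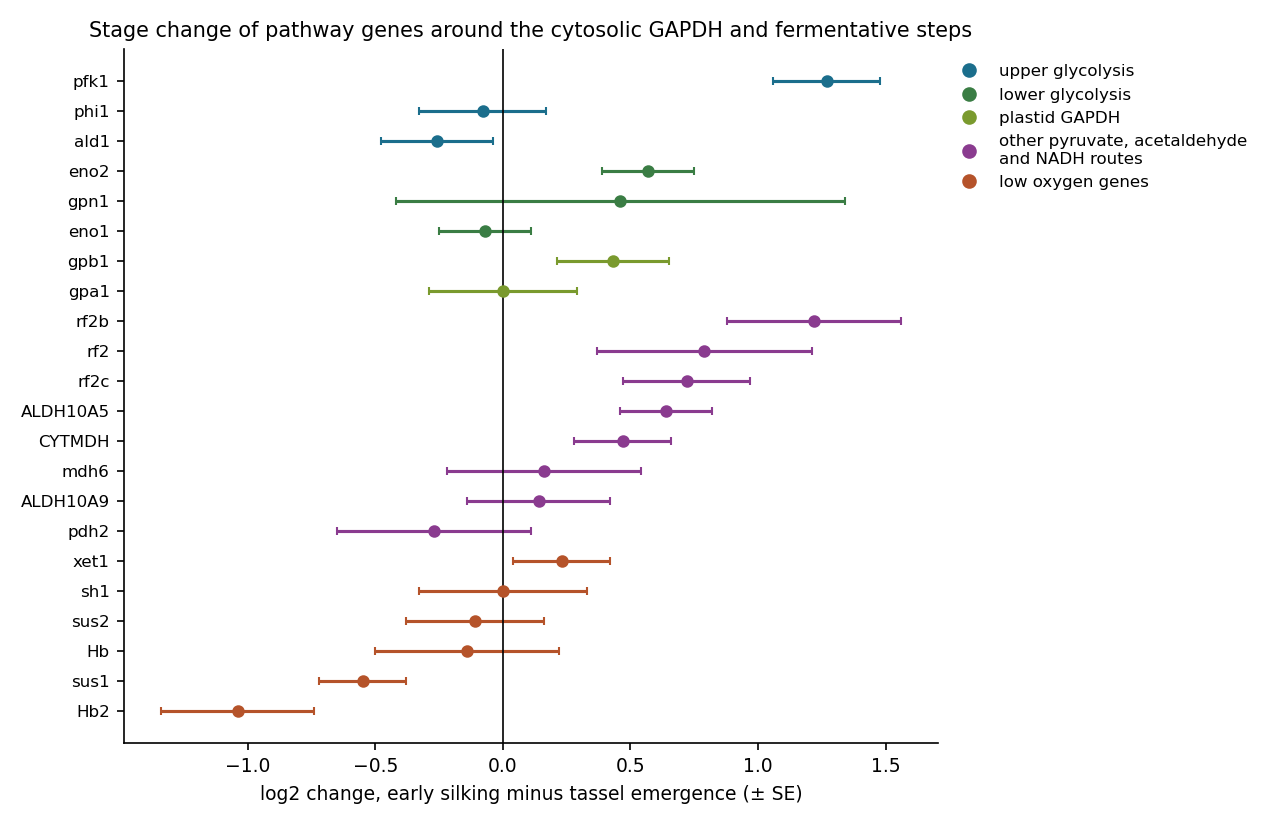
Log2 change between the stages, with bars of 1 SE, for the 22 tested genes of 5 pathway lists, coloured by list and with 1 probe set per gene. pfk1 and rf2b have the highest changes, 1.27 and 1.22, and Hb2 the lowest, -1.04.

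The tested members were also compared with 697 other named genes by the root mean square distance between values centred over the 4 arrays. With 4 arrays, small distances are a description of these samples. Genes chosen by closeness to a member have stage changes near that of the member, so nothing is read from the likeness of the changes below. Nearest to gpc3 were MMT1, a methionine methyltransferase (0.06), the cellulose synthase CesA-2 (0.09) and the beta-tubulin tub6 (0.10), with changes of -1.76, -1.64 and -1.83. Nearest to gpc4 were the beta-tubulin tub5 (0.13), pglcat8 (0.15) and the beta-tubulin tub4 (0.18), with changes of -1.93, -1.78 and -1.91. gpc3 and gpc4 were 0.27 from each other.

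Nearest to pdc2 were dps1 (0.09), the starch branching enzyme sbe1 (0.10) and pdrp1, which regulates pyruvate phosphate dikinase (0.11), with changes of 1.34, 1.35 and 1.52. Nearest to adh2 were ANR_3 (0.11), the auxin-binding protein gene abp1 (0.12) and the ferritin gene fer2 (0.13), and pdc2 stood 0.38 from adh2. ANR_3 lay near the limit of 4, at 3.73 and 2.84 at tassel emergence and 4.06 and 4.19 at early silking. pdc3 had no gene closer than the anthocyanin gene a2, at 0.22, followed by the wound-induced gene wip1 (0.27) and the elongation factor gene elfa2 (0.31). Each of these was, like pdc3, higher on tassel emergence replicate 1 and early silking replicate 2 than on the other array of its stage. That follows from choosing them by closeness to pdc3, and nothing is read from it.

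The nearest genes of gpc1, gpc2 and adh1 had distances of 0.02 to 0.06. Nearest to gpc1 were hac106 (0.03), the plastid GAPDH gene gpb1 (0.04) and smh4 (0.04). hac106 lay near the limit of 4, at 3.94 and 4.37 at tassel emergence and 4.67 and 4.56 at early silking. Nearest to gpc2 were the elongation factor gene elfa3 (0.02), the histone acetyltransferase gene gcn5 (0.04) and the ribosomal protein gene rpp2a-4 (0.05). Nearest to adh1 were hmg2 (0.03), aba1 (0.05) and the initiation factor gene eIF-5 (0.06).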

How the data were processed

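The authors deposited 1 table of log2 probe set values for 4 Affymetrix maize arrays, made with GCRMA per the submitters' processing notes. GCRMA corrects background by probe sequence, normalizes between arrays and compresses differences near background. Values ran from 1.36 to 15.29, the range of GCRMA output on its log2 scale. The GCRMA version is not given in the sources used here. The number of arrays limits the precision.

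Of 17734 probe sets, 113 controls were left out. 10782 had a log2 value above 4 on at least 2 arrays and entered a linear model for stage (lmFit and eBayes of limma 3.58.1, R 4.3.3, 2-sided, Benjamini-Hochberg). The fit was tested on simulated data with independent noise, whose variances were drawn from those of the fit itself. Such data cannot show how the fit does where arrays share differences, and nothing is read from that test. The smallest permutation p for 2 against 2 arrays is 0.33. Standard errors come from this fit. p-values measure the spread between these arrays, which may be technical.

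Gene names came from the platform annotation and, through gene identifiers, from RefSeq symbols and synonyms (annotation of Zm-B73-REFERENCE-NAM-5.0), which served only as names. 1452 probe sets had 1 gene, 1 had several and 16168 had none, and 1060 of 1108 genes matched. In the pathway lists the probe set with the highest mean stood for a gene. The lists matched 47 genes by name, and 24 whose other names point elsewhere, or whose symbol is ambiguous, were left out after values had been seen. Every member was named, as was every gene of a list of up to 6 and otherwise the 3 largest rises and falls, and the 3 nearest genes of each tested member. Members and lists were chosen with earlier results of these data known.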

Additional observations from a re-analysis of the deposited data

How the results depend on the processing

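No probe set was called with no filter, values above 4 on all 4 arrays, quantile normalization, centred arrays, an intensity trend, or without any single array (0 in each, where the lone array of a stage is taken to vary like the other stage). With the replicate number as a block 0 were called, and 1594 in place of 2679 had an unadjusted p under 0.05. The labels do not say that the numbers pair the samples. Replicate differences of the stages correlated at -0.422 across probe sets, and with the pairs crossed as a block, an alternative chosen after seeing the data, 357 were called.

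The fermentative minus cytosolic GAPDH change of 2.67 was 1.44 with 1 probe set per gene and 1.85 with means. It was 2.02 to 3.31 without single arrays, and between 2.44 and 2.93 under the other 5 settings, of which the median of changes and leaving out _s_at and _x_at probe sets were added after seeing the data. Values above 4 on all 4 arrays kept the same member probe sets and could not move it (2.67). Leaving out _s_at and _x_at probe sets kept gpc4 as the GAPDH median and every fermentative probe set, so it could not move it either (2.67). The lower glycolysis median of 0.46 was 0.29 with all probe sets of a gene, -0.04 with genes matched by name alone, and -0.01 to 0.63 without single arrays, negative without replicate 1 of either stage. The low oxygen median of -0.12 was -0.41 to 0.12, positive without replicate 1 of either stage. The median of the other pyruvate routes, 0.55, was 0.16 with genes matched by name alone. The cause was not tested, except that the name-only lists hold other genes. In the 33 alternatives for single members that keep all arrays the change moved by less than 1 SD between replicates, though a replicate block cannot move it. In the 44 that leave out an array such a move could not exceed 1 SD with 2 arrays a stage, so only signs and ranges are read from them. The sign turned in 5 of them, for gpc1 on Zm.3765.2.S1_at (-0.23), pdc3 (-0.43 and -0.31) and adh1 (-0.01 and -0.03). It could not turn for gpc3, gpc4, pdc2 or adh2, whose stages did not overlap, so nothing is read from their unchanged signs.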
